A study of Homo sapiens with 8 samples.

Results

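Genes for copying DNA were measured in THP-1 foam cells with and without auranofin. The 44 genes were taken by symbol from the table of gene counts and cover origin licensing, the replicative helicase, the DNA polymerases, the sliding clamp and its partners, deoxynucleotide supply, the copying of chromatin, and the factors that start S phase, several of them known targets of the transcription factor E2F1. All 44 were among the 62700 rows of the table and among the 17535 genes with enough counts to be tested.

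THP-1 is an established human monocytic leukaemia line, so all libraries come from a single line. Treatment with PMA, a phorbol ester, at 50 ng/mL over 72 h made the cells macrophages, which were loaded for 48 h with acetylated low-density lipoprotein, which scavenger receptors take up and which turns macrophages into lipid-filled foam cells. In the AF group (4 libraries) the medium held auranofin at 0.5 µM, a gold-containing drug that blocks thioredoxin reductase, and in the DMSO group (4 libraries) the vehicle alone, at under 0.1% by volume. The sample protocol starts the drug 24 h ahead of the lipid and keeps it on during loading, while the design text of the series starts it after loading. No source states that the libraries of a group came from separate cultures, so the p-values measure spread among these libraries only, and that spread may be technical. Library names share a stem in pairs within each group (replicates 1 and 2, and replicates 3 and 4), and no label says what a stem stands for, so a group may hold fewer than 4 independent samples.

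Before S phase, the origin recognition complex with CDC6 and CDT1 loads the ring of MCM2 to MCM7 onto DNA at future origins. CDC45 and the GINS complex then join the ring to form the CMG helicase, polymerase alpha with primase lays down primers, and polymerases epsilon and delta extend them on the PCNA clamp. Cells that enter the cycle switch most of these genes on together when the retinoblastoma protein releases E2F factors, and monocytic cells treated with phorbol ester are known to slow or leave the cycle as they become macrophages.

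Promoter stretches with the letters of the E2F site, which E2F factors can bind, are shown first, since many of the 44 genes carry such letters. Promoter windows from RefSeq (GRCh38.p14, 250 bases before to 50 after the annotated start) were found for 38 of the 44 genes. The windows were searched on both strands for 4 spellings of the E2F site, TTTCCCGC, TTTCGCGC, TTTGCCGC and TTTGGCGC, which can overlap one another. A match was present for 22 of the 38 genes (57.9%), against 3.99% of all 27305 genes with a window and 6.49% of the 11303 tested genes with one. Since known E2F1 targets were among those chosen, this share describes the choice of genes and is not a test. The following stretches run 5′ to 3′ on the strand of the gene, with the E2F match in capitals.

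UHRF1 is shown because it had the largest change, and its stretch (chr19:4909958-4910017, plus strand) lies upstream of its second annotated start.
UHRF1: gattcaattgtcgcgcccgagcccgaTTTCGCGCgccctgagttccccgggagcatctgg
POLA1 had the largest change of the polymerase genes and MCM3 the smallest adjusted p of the helicase genes. Their stretches are chrX:24693755-24693814 on the plus strand and chr6:52284883-52284942 on the minus strand.
POLA1: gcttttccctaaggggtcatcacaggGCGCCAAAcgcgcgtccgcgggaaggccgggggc
MCM3: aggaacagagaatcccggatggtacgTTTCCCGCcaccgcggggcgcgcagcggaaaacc
CDC25A, a phosphatase that switches on the S-phase kinase, is at chr3:48188428-48188487 and PCNA at chr20:5126648-5126707, both on the minus strand.
CDC25A: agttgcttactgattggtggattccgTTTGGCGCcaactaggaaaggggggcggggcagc
PCNA: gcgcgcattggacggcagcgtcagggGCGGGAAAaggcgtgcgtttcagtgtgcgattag
MCM6 carried 2 pairs of overlapping matches, at chr2:135876562-135876621 and chr2:135876500-135876559 on the minus strand, although its change was the smallest of any gene called.
MCM6 upper pair: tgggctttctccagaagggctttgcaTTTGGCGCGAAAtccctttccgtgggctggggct
MCM6 lower pair: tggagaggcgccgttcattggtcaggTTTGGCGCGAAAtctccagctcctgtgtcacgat
None of these 7 stretches overlaps an exon in GENCODE 29.

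For CDT1, TYMS and E2F1 itself, 30 bases around a match are given, because annotated exons in GENCODE 29 reach into these regions. They are chr16:88803743-88803772 on the plus strand, of which 30 bases lie in an exon, chr18:657603-657632 on the plus strand with 29 such bases, and chr20:33686400-33686429 on the minus strand with 5. The E2F1 stretch ends inside a second match, TTTGGCGC, whose first letters stand in lower case.
CDT1: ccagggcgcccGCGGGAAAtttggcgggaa
TYMS: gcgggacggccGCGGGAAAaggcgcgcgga
E2F1: gtggctctttcGCGGCAAAaaggatttggc

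Matches were found for 17 of the 27 genes with a window that were later called lower (63%) and for 5 of the 11 that were not called (45.5%). The CCAAT box (CCAAT), bound by NF-Y, was found for 23 of the 38 genes (60.5%), against 42.6% of tested genes. In 5 further gene lists described below, its share was 77.1% for mitosis and G2/M and 68% for checkpoint and fork repair. It was 58.6% for other replication factors, 50% for other nucleotide supply and 42.9% for RB, E2F and CDK control. The CHR element (TTTGAA), the hallmark of genes that peak in mitosis, was found for 2 of the 38 (5.26%), DUT and RRM1, against 13.9% of tested genes. By comparison, in a list of 40 mitosis and G2/M genes, 26 of the 35 with a window held the CHR letters (74.3%) and 2 held an E2F spelling (5.71%). The share with an E2F spelling was 24.1% for other replication factors and 20% for checkpoint and fork repair. It was 17.9% for RB, E2F and CDK control and 15% for other nucleotide supply, against 6.49% of tested genes. A match is a run of letters, and binding was not measured.

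Depth lay between 19336073 (DMSO replicate 4) and 32325981 (AF replicate 2) counts per library, and the smallest count of any of the 44 genes in a library was 38. AF replicate 1 stood apart: rows in the ribosomal DNA repeats took 34.85% of its counts, against 0.747% to 0.967% in the others, and its TMM scaling factor was 0.679 against 1.04 to 1.08. Values below are CPM, in which each count is divided by the TMM-scaled size of its library, and fold changes are AF over DMSO on the log2 scale with their standard error (SE) from edgeR. A gene is called when its Benjamini-Hochberg adjusted p over all 17535 genes is under 0.05.

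Replication genes were lower in the auranofin libraries. Of the 44 genes, 31 fell (70.5%), 0 rose and 13 were not called, where 7.81% of all genes tested fell, 7.62% rose and 15.4% changed in either direction. The count of genes that rose was 0 also at an unadjusted p under 0.05, with DESeq2 and with limma voom. The median log2 fold change of the 44 was -0.42, against 0.005 for all genes tested, of which the middle 80% lay between -0.39 and 0.36. The summed level of the 44 genes was 1534, 1699, 1674 and 1493 CPM in DMSO replicates 1 to 4 and 1256, 1157, 1143 and 1257 CPM in AF replicates 1 to 4. Every AF library was below every DMSO library in this sum. For 31 single genes the 4 AF values all lay below the 4 DMSO values, as they did for 9.68% of all genes tested. Of these 31, 29 were among the genes called, and the other two were ORC6 and RFC3.

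The falls were moderate. Called genes ranged from -0.94 to -0.22 (SE 0.065 to 0.158), which is a change of -47.9% to -14.4%, and none of the 44 reached a 2-fold change. The size of the change showed no relation to the level in DMSO (Pearson r = 0.0040 and Spearman rho = -0.0037 across the 44 genes, which share the same 8 libraries). Without AF replicate 1, 30 of the 44 genes fell, 29 of them shared with the full set, and the median was -0.45. With the libraries of a name stem summed, 2 against 2, 31 of the 44 genes again fell, 30 of them shared with the fit on single libraries, with GINS4 lost and CDC6 gained. With library totals as the only scaling, which the ribosomal rows of AF replicate 1 enter, 22 of the 44 fell and the median was -0.57, while the median of all genes moved to -0.145 and lower calls went from 50.6% to 79.3% of all calls. Relative to the median of all genes, the 44 then stood at -0.43, against -0.42 with TMM factors.

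**Figure D1:**
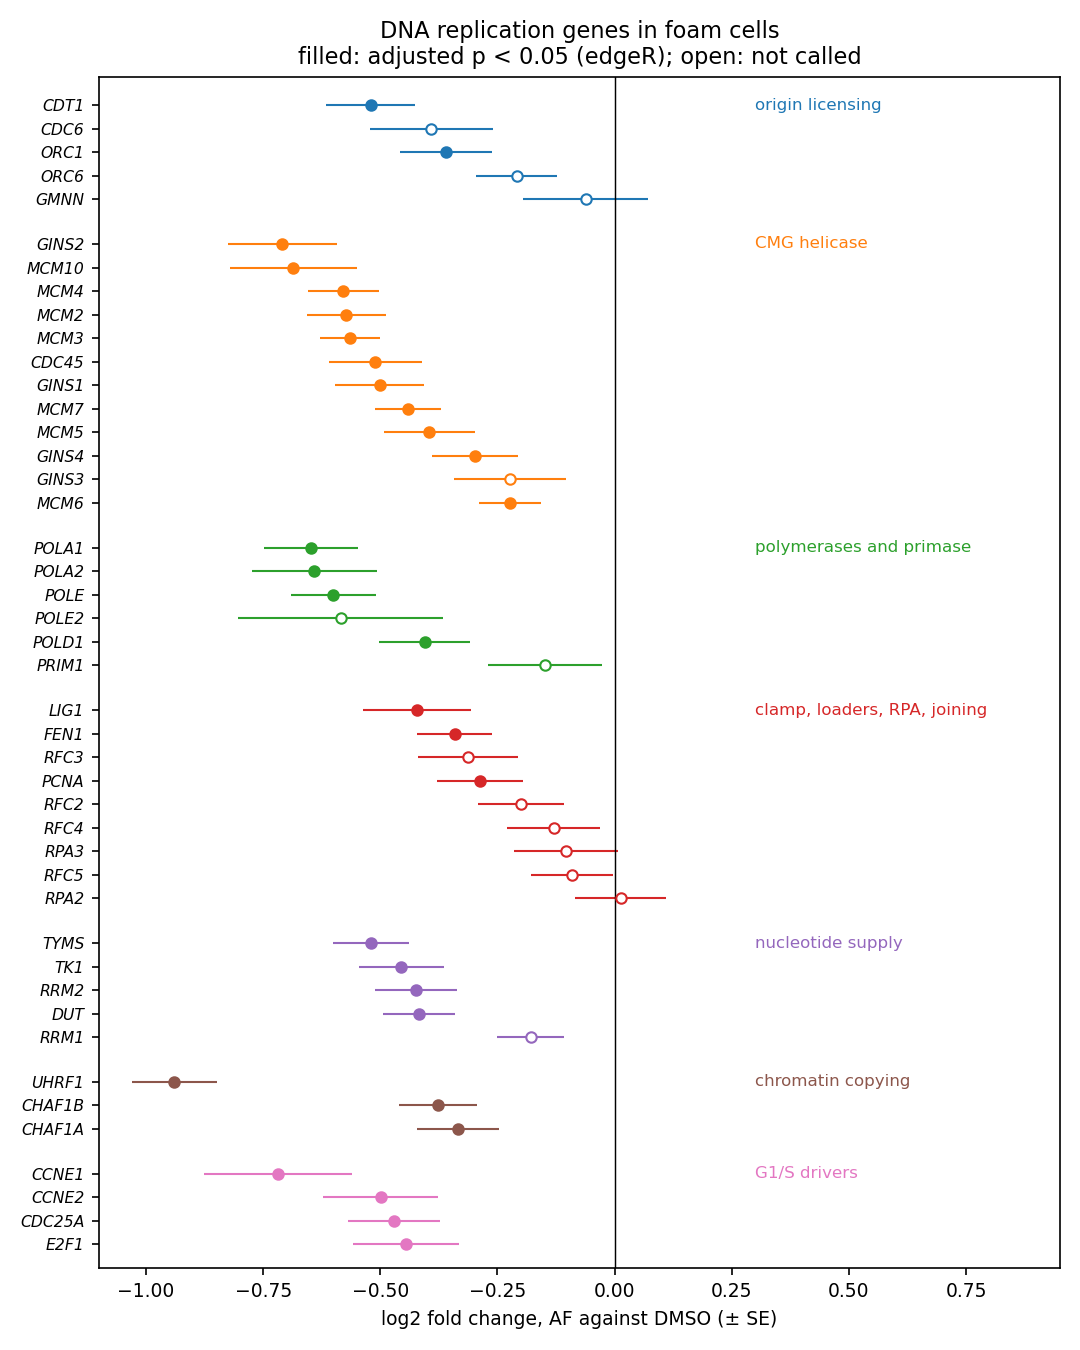
Log2 fold change (AF against DMSO, x axis) of each of the 44 genes, grouped by role on the y axis, with bars for the SE from edgeR on 4 against 4 libraries. Filled points are the 31 genes with an adjusted p under 0.05, all of them left of 0, and RPA2 alone has a value above 0 (-0.12 with library totals as the only scaling).

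In bulk RNA, fewer cycling cells and less RNA per cell cannot be told apart. Macrophage markers were present in every library: the summed level of 10 of them was 5201 to 5862 CPM in DMSO and 5053 to 5813 CPM in AF. Of these 10, ITGAX, ITGAM, CTSD, CD14 and LGALS3 rose, MSR1 and LYZ fell, and 3 were not called. Markers of undifferentiated myeloid precursors were also expressed. Of 7, 6 were tested and 4 fell (MYB, PRTN3, KIT and ELANE), with a median of -1.11. Their summed level was 518 to 654 CPM in DMSO and 317 to 488 CPM in AF. The largest part of this sum was AZU1, at 282 to 343 CPM in DMSO and 199 to 312 CPM in AF. AZU1 had -0.26 ± 0.11 and was not called (edgeR adjusted p = 0.124), and its groups overlapped. MYB, a transcription factor of proliferating precursors, stood at 25.04 to 35.5 CPM in DMSO and 11.3 to 13.2 CPM in AF. CD34, the stem cell marker, was at 0 in every library, and MPO was under 1 CPM. The part of these precursor genes in the fall of the replication genes was not tested. Markers of T cells, B cells, epithelial cells and fibroblasts summed to under 1 CPM in every library, with MS4A1, EPCAM and COL1A2 at 0. Of 3 endothelial markers, PECAM1, which monocytes also make, was at 296 to 323 CPM and VWF at 3.78 to 5.23 CPM, and CDH5 had counts in DMSO replicate 1 alone.

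**Figure D2:**
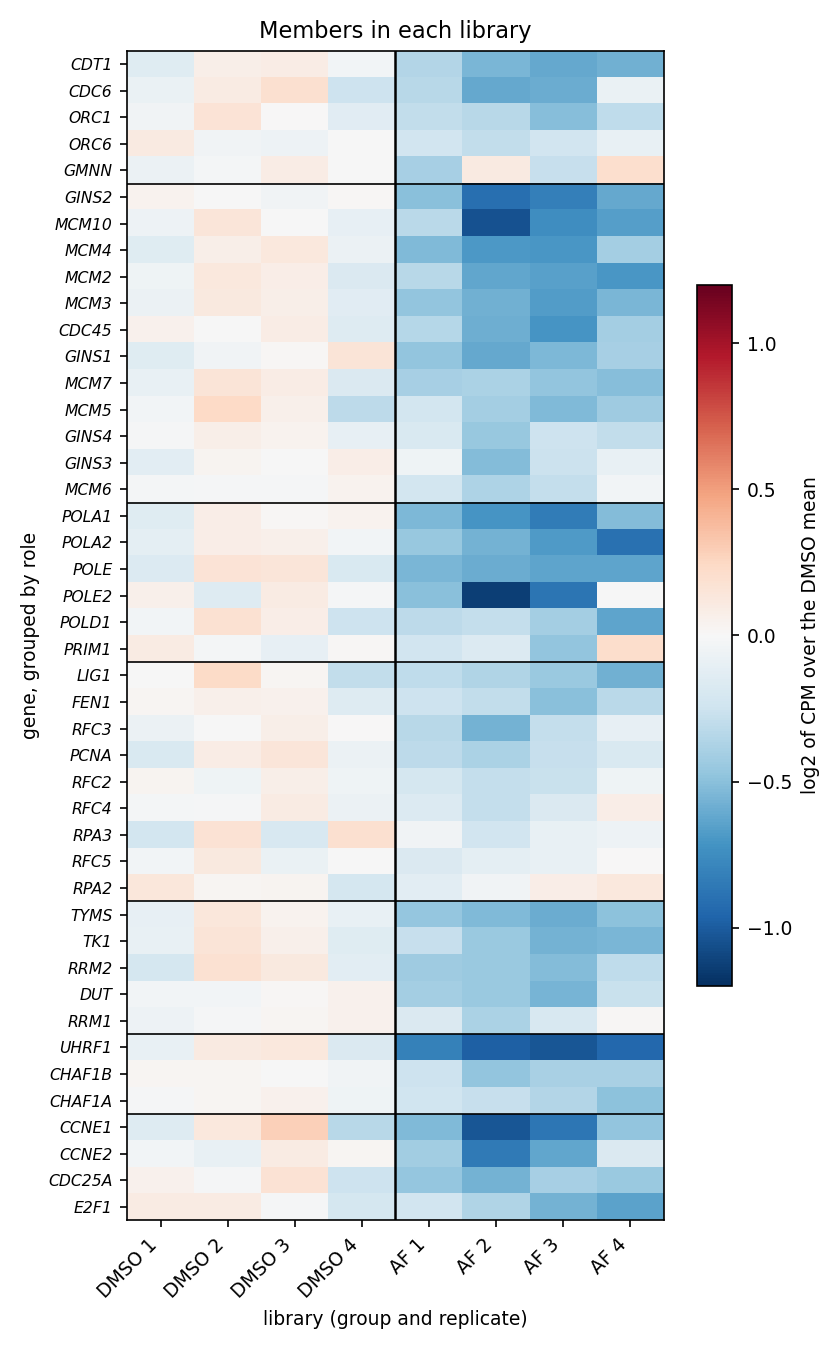
Level of each of the 44 genes (rows, grouped by role) in each library (columns), as the log2 of its CPM over the mean of the 4 DMSO libraries, with blue for lower and red for higher. The AF columns are blue for nearly all genes. For 31 of the 44 genes the 4 AF values all lie below the 4 DMSO values, as for 9.68% of all genes tested.

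The AF libraries were not equally low. The median of the 44 genes, set against the DMSO mean, was -0.32, -0.45, -0.51 and -0.39 on the log2 scale in AF replicates 1 to 4. AF replicate 2 was the lowest of the AF libraries for 19 genes and AF replicate 3 for 15, while AF replicate 1 was the highest for 21 and AF replicate 4 for 20. Among the DMSO libraries, replicates 2 and 3 were the highest for 18 and 15 genes and replicates 4 and 1 the lowest for 22 and 15.

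Among the 5 genes of origin licensing, 2 fell and 3 were not called, with a median of -0.36. CDT1, the loading factor that is destroyed once S phase starts, was at 19.2, 22.2, 22.6 and 20.8 CPM in DMSO replicates 1 to 4 and at 16.6, 14.5, 13.9 and 14.2 CPM in AF. The groups did not overlap, and CDT1 fell by 0.52 ± 0.10 on the log2 scale (edgeR adjusted p = 0.00209). ORC1, the largest subunit of the origin recognition complex, was at 22.9, 26.5, 23.8 and 21.5 CPM in DMSO and 19.3, 18.7, 16.6 and 19.2 CPM in AF. It fell by 0.36 ± 0.10 (edgeR adjusted p = 0.0237), again with no overlap, but was not called without DMSO replicate 2 (adjusted p = 0.0730) or AF replicate 3 (0.0785).

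GMNN encodes geminin, the protein that holds CDT1 inactive after origins have fired. It was at 6.91, 7.18, 7.75 and 7.25 CPM in DMSO and 5.52, 7.83, 5.98 and 8.38 CPM in AF, with AF replicates 2 and 4 above every DMSO library and AF replicates 1 and 3 below. Its log2 fold change was -0.06 ± 0.13 (edgeR adjusted p = 0.799), which turned to 0.019 without AF replicate 1 and 0.0076 without AF replicate 3. The ratio of CDT1 to GMNN counts was 2.78 to 3.09 in DMSO and 3.00, 1.86, 2.31 and 1.70 in AF replicates 1 to 4, so AF replicate 1 kept the DMSO ratio and the other AF libraries were below it. CDC6, the ATPase that brings CDT1 and the MCM ring to the origin, had -0.39 ± 0.13 (edgeR adjusted p = 0.0575), with AF replicate 4 at 28.5 CPM, inside the DMSO range of 25.3 to 34.4 CPM. It was called without AF replicate 4 (-0.51, adjusted p = 0.00760), AF replicate 1 (adjusted p = 0.0352) or DMSO replicate 4 (0.0315). ORC6, the smallest ORC subunit, had -0.21 ± 0.09 (edgeR adjusted p = 0.117) with no overlap between the groups.

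Nearly all helicase genes fell. Of 12, 11 were called lower, with a median of -0.51, and the groups did not overlap for 10. MCM3, the gene of a ring subunit, was at 144.9, 164.8, 160.0 and 138.4 CPM in DMSO and 109.8, 102.1, 95.7 and 103.9 CPM in AF, with every AF library below every DMSO library. It fell by 0.56 ± 0.06 (edgeR adjusted p = 5.55e-05). MCM4, whose product sits in the catalytic part of the ring, was at 116, 135, 140.2 and 122 CPM in DMSO and 88.9, 79.6, 78.8 and 96.5 CPM in AF, with a log2 fold change of -0.58 ± 0.08 (edgeR adjusted p = 0.000171). MCM2, whose tail also carries histones, was at 63.8, 72.2, 70.2 and 58.7 CPM in DMSO and 52.4, 43.1, 42.1 and 40.9 CPM in AF. AF replicate 1 was the highest AF library for MCM2 and still below DMSO, and the log2 fold change was -0.57 ± 0.09 (edgeR adjusted p = 0.000442).

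Over the 6 ring subunits the log2 falls spanned 0.22 to 0.58. MCM7 fell by 0.44 ± 0.07 and MCM5 by 0.40 ± 0.10, MCM5 with AF replicate 1 inside the DMSO range and not called without DMSO replicate 2 (adjusted p = 0.0559). MCM6 was at 97.0, 97.3, 97.5 and 101.4 CPM in DMSO and 84.2, 76.2, 80.5 and 95.96 CPM in AF, and AF replicate 4 lay just under the DMSO range. It fell by 0.22 ± 0.07 (edgeR adjusted p = 0.0334), but was called in only 1 of the 8 fits that leave out a library, that without AF replicate 4, with adjusted p up to 0.111 without AF replicate 3. The MCM3 to MCM6 count ratio was 1.49, 1.69, 1.64 and 1.36 in DMSO replicates 1 to 4 and 1.30, 1.34, 1.19 and 1.08 in AF. The ratio was lower in each AF library than in each DMSO library. This pair and the 4 others for which count ratios are given were picked after their values were seen, so the ratios carry no test.

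Factors that complete and fire the helicase followed the ring. CDC45, which joins the MCM ring when origins are activated, fell by 0.51 ± 0.10, and MCM10, which is needed to activate the assembled helicase, by 0.69 ± 0.14, from 8.41 to 9.93 CPM in DMSO to 4.36 to 7.17 CPM in AF. Of the GINS subunits, GINS2 fell by 0.71 ± 0.12, GINS1 by 0.50 ± 0.10 and GINS4 by 0.30 ± 0.09, while GINS3 had -0.22 ± 0.12 and was not called (edgeR adjusted p = 0.227). GINS2 was at 7.62 to 8.07 CPM in DMSO and 4.21 to 5.57 CPM in AF, whereas GINS3 was at 7.05 to 8.12 CPM and 5.37 to 7.43 CPM. Per kilobase of exon, GINS2 was at 2.41 in DMSO and 1.48 in AF, and GINS3 at 1.504 and 1.29. Their count ratio (GINS2 over GINS3) was 0.976 to 1.15 in DMSO and 0.695 to 0.784 in AF. GINS4 was called in 3 of the 8 fits that leave out a library, and not without DMSO replicate 1, 2 or 3 or AF replicate 2 or 3 (adjusted p 0.0610 to 0.100).

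**Figure D3:**
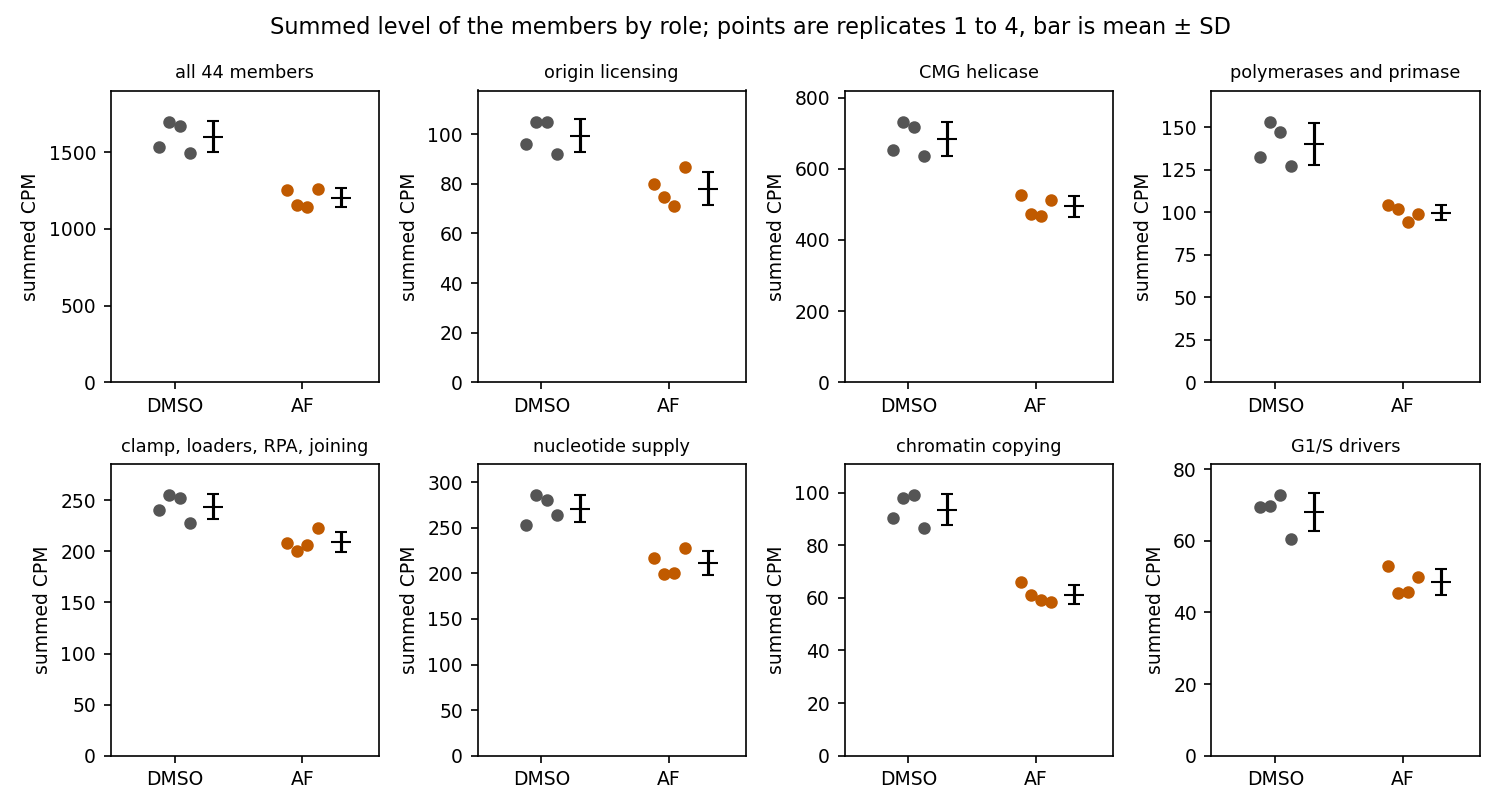
Summed CPM (y axis, from 0) of all 44 genes and of the genes of each role in the 4 DMSO and 4 AF libraries. Points are replicates 1 to 4 from left to right and bars the mean ± SD. The AF points lie under the DMSO points in all 8 panels, with the narrowest gap for the clamp, loader, RPA and joining genes (200 to 223 CPM in AF and 228 to 255 CPM in DMSO).

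Genes of each replicative polymerase fell. Of the 6 genes of polymerases and primase 4 fell, with a median of -0.59. POLE, the catalytic subunit of the leading-strand polymerase epsilon, was at 41.9, 52.5, 51.7 and 41.3 CPM in DMSO and 32.1, 31.1, 30.2 and 30.3 CPM in AF. The AF libraries lay close together and well below DMSO (-0.60 ± 0.09, edgeR adjusted p = 0.000489). POLA1, the catalytic subunit of polymerase alpha, was at 20.7, 24.2, 23.1 and 23.5 CPM in DMSO and 15.7, 13.99, 12.8 and 15.99 CPM in AF (-0.65 ± 0.10, edgeR adjusted p = 0.000607). Its partner POLA2 was at 4.89, 5.59, 5.53 and 5.19 CPM and 3.87, 3.59, 3.32 and 2.85 CPM (-0.64 ± 0.13, edgeR adjusted p = 0.00515), with no overlap for either gene. Of the exon bases of POLA2, 35.1% are shared with another gene or genes on the same strand, and its counts are uncertain to that extent.

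POLD1, the catalytic subunit of polymerase delta, fell by 0.40 ± 0.10 (edgeR adjusted p = 0.0115), but not without DMSO replicate 2 (adjusted p = 0.0655) or DMSO replicate 3 (0.0542). PRIM1 encodes the primase subunit that starts each primer and belongs to the same complex as POLA1, yet had -0.15 ± 0.12 (edgeR adjusted p = 0.451). It was at 12.6 to 14.5 CPM in DMSO and at 11.5, 12.01, 9.72 and 15.6 CPM in AF, with AF replicate 4 above every DMSO library and the others below. The POLA1 to PRIM1 count ratio was 1.43 to 1.84 in DMSO and 1.03 to 1.37 in AF. Another gene or genes on the same strand share 16.2% of the exon bases of PRIM1. POLE2, an accessory subunit of polymerase epsilon and the second lowest of the 44 genes per length, was at 2.56 to 3.06 CPM in DMSO and 2.02, 1.30, 1.56 and 2.85 CPM in AF. Its change of -0.58 ± 0.22 was not called (edgeR adjusted p = 0.0861), and without AF replicate 4 it was -0.84 (adjusted p = 0.00920).

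The role with the clamp, its loaders, the single-strand binding proteins and the joining enzymes had the smallest share of calls. Of its 9 genes 3 fell and 6 were not called, with a median of -0.20. FEN1, the nuclease that trims Okazaki flaps, was at 45.8, 47.0, 46.7 and 40.4 CPM in DMSO and 37.7, 36.6, 31.8 and 36.0 CPM in AF (-0.34 ± 0.08, edgeR adjusted p = 0.00948). LIG1, the ligase that seals the fragments, was at 26.3, 31.1, 27.0 and 21.6 CPM in DMSO and 21.4, 20.7, 19.4 and 17.7 CPM in AF (-0.42 ± 0.12, edgeR adjusted p = 0.0229). The groups were adjacent but did not overlap for these 2 genes. Neither was called when AF replicate 3, DMSO replicate 2 or DMSO replicate 3 was left out (adjusted p 0.0511 to 0.0764).

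PCNA, the sliding clamp, was at 32.5, 39.2, 40.9 and 35.2 CPM in DMSO and 29.7, 28.4, 30.5 and 32.5 CPM in AF. AF replicate 4 reached the lowest DMSO library, and the change of -0.29 ± 0.09 passed narrowly (edgeR adjusted p = 0.0480). Of the 8 fits that leave out a library, PCNA was called in 2, those without DMSO replicate 1 or AF replicate 4, with adjusted p from 0.0507 to 0.169 in the others. The clamp loader genes RFC2, RFC3, RFC4 and RFC5 had -0.20, -0.31, -0.13 and -0.09 and were not called (edgeR adjusted p = 0.0604 for RFC3, whose groups did not overlap, and 0.160 to 0.524 for the others). Without AF replicate 4 RFC3 was called (adjusted p = 0.0102). RPA2 and RPA3, subunits of the protein that coats single-stranded DNA, had -0.10 ± 0.11 for RPA3 and 0.01 ± 0.10 for RPA2, the value closest to 0 of the 44. RPA2 was at 34.8, 32.3, 32.4 and 27.3 CPM in DMSO and 29.1, 30.7, 33.5 and 34.7 CPM in AF, and its sign turned to -0.12 with library totals as the only scaling.

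Deoxynucleotide supply fell in 4 of 5 genes, with a median of -0.42. TYMS, the thymidylate synthase that makes dTMP, was at 39.5, 46.4, 43.5 and 39.9 CPM in DMSO and 30.7, 29.4, 27.9 and 30.1 CPM in AF (-0.52 ± 0.08, edgeR adjusted p = 0.000656). DUT, which clears dUTP and supplies dUMP to TYMS, was at 43.5, 43.6, 44.8 and 46.1 CPM in DMSO and 33.4, 32.6, 30.3 and 37.0 CPM in AF (-0.42 ± 0.08, edgeR adjusted p = 0.00230). TK1, the S-phase thymidine kinase of the salvage route, was at 42.3, 50.1, 47.0 and 40.6 CPM and 37.3, 33.0, 30.4 and 30.8 CPM (-0.46 ± 0.09, edgeR adjusted p = 0.00363). For these 3 genes of the thymidine branch, the highest AF library was below the lowest DMSO library. Another gene or genes on the other strand share 46.6% of the exon bases of TYMS and 14.5% of those of DUT. The antisense rows TYMSOS and DUT-AS1 held a mean of 8.75 and 5.5 counts, against 926 for TYMS and 1002 for DUT. Which genes make up these overlaps, and their counts, was not examined.

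Ribonucleotide reductase makes the deoxynucleotides from ribonucleotides. RRM2, the small subunit made in S phase, was at 46.3, 60.9, 58.0 and 49.1 CPM in DMSO and 40.0, 39.3, 37.2 and 43.3 CPM in AF. It fell by 0.42 ± 0.09 (edgeR adjusted p = 0.00479), with the groups apart. Pseudogene reads were few (a mean of 9.5 counts for RRM2P3 against 1205 for RRM2). However, another gene or genes on the same strand share 20.2% of RRM2's exon bases. RRM1, the long-lived large subunit, had -0.18 ± 0.07 (edgeR adjusted p = 0.106), at 81.8 to 88.4 CPM in DMSO and 75.7, 65.5, 74.8 and 86.1 CPM in AF, and was called without AF replicate 4 (-0.25, adjusted p = 0.00992). The RRM2 to RRM1 count ratio was 0.555 to 0.719 in DMSO and 0.498 to 0.599 in AF, which overlap.

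All 3 genes of chromatin copying fell. UHRF1, which recognises hemimethylated DNA behind the fork and brings in the maintenance methyltransferase, had the largest change of the 44. It was at 43.9, 50.4, 51.2 and 41.5 CPM in DMSO and 26.6, 23.7, 22.9 and 24.4 CPM in AF (-47.9% on the linear scale and -0.94 ± 0.09 on the log2 scale, edgeR adjusted p = 1.3e-05). The highest AF library was far under the lowest DMSO library. In the fits that leave out a library, the UHRF1 change stayed between -0.99 and -0.89. The large subunits of the histone chaperone CAF-1 fell by less: CHAF1B was at 13.6, 13.7, 13.4 and 13.02 CPM in DMSO and 11.3, 9.70, 10.3 and 10.3 CPM in AF (-0.38 ± 0.08, edgeR adjusted p = 0.00706). CHAF1A was at 32.9, 33.8, 34.4 and 32.0 CPM in DMSO and 28.3, 27.5, 26.1 and 23.7 CPM in AF (-0.33 ± 0.09, edgeR adjusted p = 0.0193). Neither gene's groups overlapped, and CHAF1A lost its call when AF replicate 3, DMSO replicate 2 or DMSO replicate 3 was left out (adjusted p 0.0577 to 0.0657).

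All 4 drivers of the G1/S step fell, with a median of -0.48 and no overlap between groups. CCNE1, cyclin E1, the partner of CDK2 at S-phase entry, was at 7.22, 8.77, 9.83 and 6.39 CPM in DMSO and 5.57, 3.94, 4.42 and 5.81 CPM in AF (-0.72 ± 0.16, edgeR adjusted p = 0.00703). CCNE2, cyclin E2, was at 16.4, 15.8, 17.96 and 17.0 CPM and 12.5, 9.34, 10.9 and 14.9 CPM (-0.50 ± 0.12, edgeR adjusted p = 0.0131), with AF replicate 4 nearest to DMSO. Another gene or genes on the other strand share 37.1% of the exon bases of CCNE2. Such overlap was also 23.62% for MCM2, 23.56% for GINS4, 10.93% for GINS3 and 10.65% for RFC5. The strand setting of the counting step is not given, so the effect on these counts is not known. CDC25A, which removes the inhibitory phosphate from CDK2, was at 15.6, 14.9, 17.1 and 12.7 CPM in DMSO and 10.9, 10.2, 11.4 and 11.1 CPM in AF (-0.47 ± 0.10, edgeR adjusted p = 0.00506). E2F1 itself was at 30.2, 30.1, 27.8 and 24.4 CPM in DMSO and 23.9, 21.9, 19.0 and 17.98 CPM in AF (-0.45 ± 0.11, edgeR adjusted p = 0.0155). The nearest E2F1 libraries were AF replicate 1 and DMSO replicate 4, and E2F1 missed the threshold without AF replicate 3 (adjusted p = 0.0504).

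Per kilobase of exon, levels of the 44 genes in DMSO spanned from 0.926 CPM for POLA2 to 41.7 CPM for MCM3. After MCM3 came PCNA (25.1 ± 2.58, SD, n = 4), TK1 (24.2 ± 2.34), MCM6 (23.9 ± 0.508), RRM1 (20.5 ± 0.687) and MCM7 (20.3 ± 2.14). PCNA, TK1 and MCM6 did not differ beyond their spread, nor did RRM1 and MCM7. UHRF1 was at 9.09 CPM per kilobase in DMSO and 4.74 in AF. The low end held MCM10 (1.65), GINS3 (1.504), POLE2 (0.968) and POLA2 (0.926) in DMSO.

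**Figure D4:**
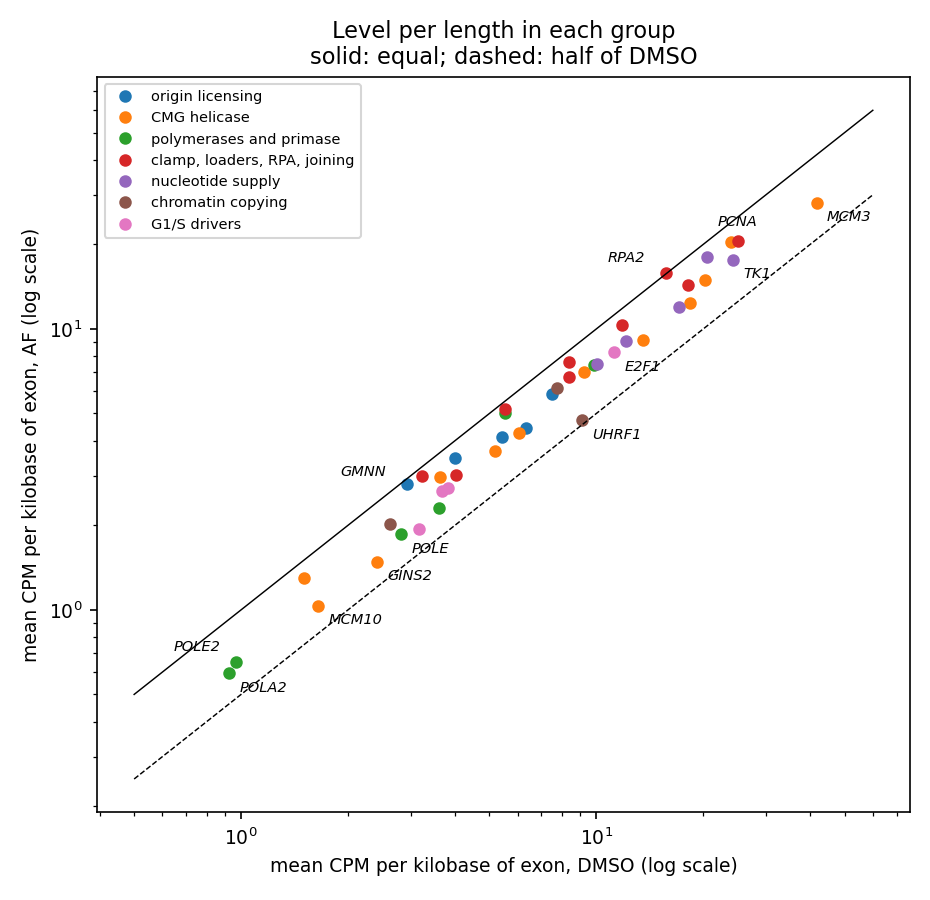
Mean CPM per kilobase of exon in AF (y axis) against DMSO (x axis), both on log scales, for the 44 genes coloured by role. All points except RPA2, whose sign depends on the scaling, lie under the solid line of equal levels, and UHRF1 (9.09 in DMSO, 4.74 in AF) lies next to the dashed line at 0.5 times the DMSO level.

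The fall extended to other genes of DNA replication. Of 36 further replication factors, 13 fell (36.1%) and 0 rose, with a median of -0.14, where 7.81% of all genes tested fell. The count that rose was 0 also at an unadjusted p under 0.05, with DESeq2 and with limma voom. CLSPN, the fork adaptor claspin, fell most, by 0.69 ± 0.10 (edgeR adjusted p = 0.000458), from 28.9 to 37.2 CPM in DMSO to 19.8 to 23.6 CPM in AF. TIMELESS, of the fork protection complex, fell by 0.35 ± 0.07 (edgeR adjusted p = 0.00469). CHTF18, of the clamp loader for cohesion, fell by 0.52 ± 0.11 (edgeR adjusted p = 0.00572). With library totals as the only scaling 3 of the 36 were called, all lower, where 3.99% of all genes tested fell.

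Of 24 further genes of nucleotide supply, 10 fell (41.7%) and 0 rose, with a median of -0.11, where 7.81% of all genes tested fell. The count that rose was 1 at an unadjusted p under 0.05, and 1 each with DESeq2 and limma voom. CMPK2, a mitochondrial nucleotide kinase that interferon also induces, fell by 1.24 ± 0.15 (edgeR adjusted p = 8.3e-05). CTPS1, a CTP synthase, fell by 0.37 ± 0.07 (edgeR adjusted p = 0.00159). With library totals as the only scaling 3 of the 24 were called, all lower, where 3.99% of all genes tested fell.

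In the switch above these genes, 33 of 36 genes of RB, E2F and CDK control were tested. Of these, 9 fell (27.3%) and 1 rose, with a median of -0.11, where 7.81% of all genes tested fell and 7.62% rose. The count of higher genes was 4 at an unadjusted p under 0.05, 2 with DESeq2, 2 with limma voom and 4 with the replicate number as a block. MYBL2, an E2F target that works with the MuvB complex, fell by 0.60 ± 0.08 (edgeR adjusted p = 0.000115). MYC, which drives cell growth and cycle entry, was at 37.1, 45.3, 50.2 and 33.9 CPM in DMSO and 22.7, 26.1, 21.9 and 20.004 CPM in AF (-0.88 ± 0.13, edgeR adjusted p = 0.000311). E2F2, an activating E2F factor, fell by 0.60 ± 0.10 (edgeR adjusted p = 0.00119). CDKN1B, which encodes the CDK inhibitor p27, was the gene called higher by edgeR and rose by 0.58 ± 0.11 (edgeR adjusted p = 0.00313), from 25.8, 18.002, 19.2 and 23.5 CPM in DMSO to 32.7, 32.6, 32.5 and 31.6 CPM in AF. Each AF library was above each DMSO library for CDKN1B, the opposite order to MYC and to the cyclin E genes.

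Of 30 replication checkpoint and fork repair genes, 6 fell (20%) and 0 rose, with a median of -0.18, where 7.81% of all genes tested fell. The count that rose was 1 at an unadjusted p under 0.05, and 1 each with DESeq2 and limma voom. BRCA1 fell by 0.38 ± 0.07 (edgeR adjusted p = 0.00226), RAD54L by 0.46 ± 0.10 and UNG, which removes uracil from DNA, by 0.42 ± 0.10. By library totals alone, 2 of these 30 and 3 of the 33 genes of RB, E2F and CDK control were called. All of them were lower, where 3.99% of all genes tested fell. Of 40 mitosis and G2/M genes, 3 fell and 1 rose, a share of 7.5% falling where 7.81% of all genes tested fell, with a median of -0.03. MKI67, the proliferation marker Ki-67, fell by 0.31 ± 0.08 (edgeR adjusted p = 0.0120), SMC2 by 0.31 ± 0.09 and CENPF by 0.19 ± 0.06, while CCNB1, cyclin B1, rose by 0.22 ± 0.05 (edgeR adjusted p = 0.0137), at 60.8 to 64.3 CPM in DMSO and 69.5 to 78.3 CPM in AF. Calls in the mitosis list ranged from 0 of 40 with library totals as the only scaling to 8 of 40 with the replicate number as a block. Over all 17535 genes tested, 883 and 4188 were called under these 2 settings.

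The 44 replication genes and the mitosis genes were both measured in the same libraries, so their summed levels can be set against each other within a library. The ratio of the 44 genes to the 40 mitosis genes was 0.669, 0.773, 0.755 and 0.630 in DMSO replicates 1 to 4 and 0.588, 0.552, 0.532 and 0.547 in AF. Each AF library was below each DMSO library, and this ratio does not depend on how the libraries are scaled. It was formed after the values had been seen and carries no test.

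**Figure D5:**
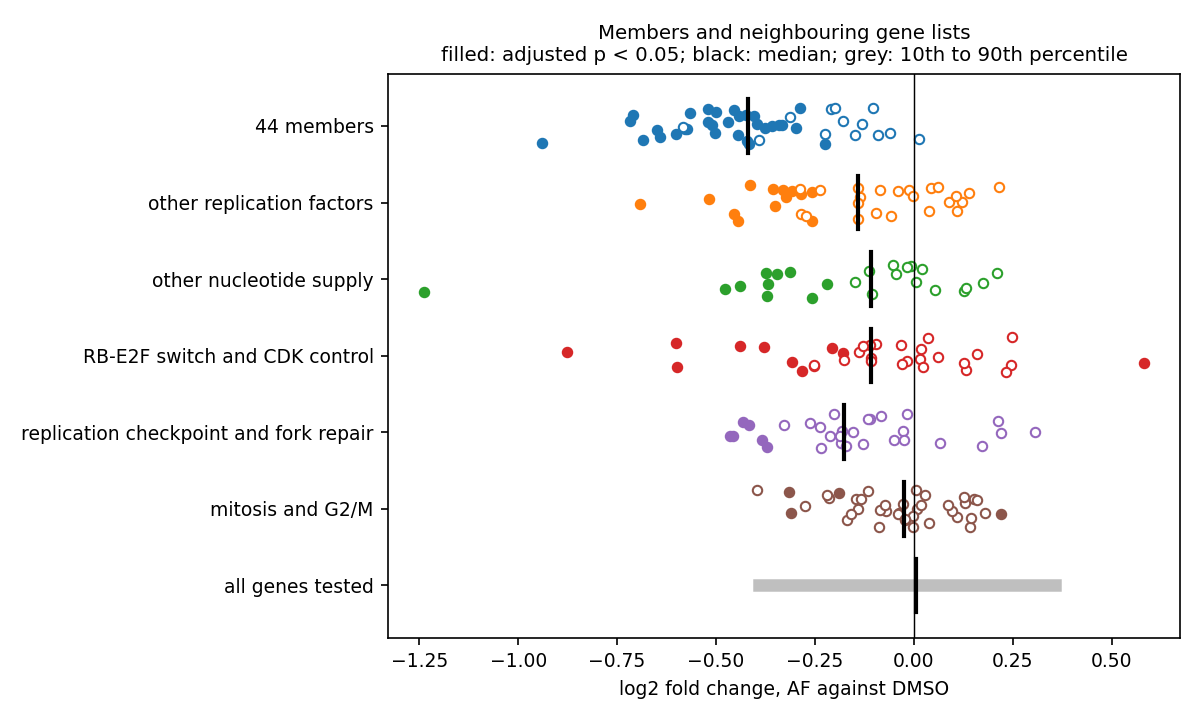
Log2 fold changes (x axis, AF against DMSO) of the 44 genes and of 5 further gene lists (y axis), with filled points for an adjusted p under 0.05 and a black mark at each median. The median is -0.42 for the 44 genes, -0.11 to -0.18 for the 4 lists on replication, nucleotides, RB-E2F and checkpoint, and -0.03 for mitosis, where the grey bar of all genes tested runs from -0.39 to 0.36.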

How the data were processed

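The authors deposited 1 table of raw counts per gene symbol for 8 libraries, whole numbers without normalisation. STAR 2.6.1d, featureCounts, Subread 1.6.3 and GRCh38 are named per the submitters' processing notes, and no source used here gives the annotation or strand setting. Libraries were stranded poly-A preparations per the labels' protocols. Columns were matched to samples by title. No pair of libraries of a group agreed within sampling noise (lowest chi-square per degree of freedom 2.95), so all entered singly.

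The counts were tested with edgeR 4.0.16 in R 4.3.3 (TMM, filterByExpr, glmQLFit and glmQLFTest, two-sided, treatment only, 6 residual degrees of freedom, biological coefficient of variation 12.8%). The test was also run on simulated counts drawn independently for each library, so this run does not cover dependence within library-name stems. The SE is the log2 fold change divided by the square root of F. Exon lengths and overlaps are from GENCODE 29. Errors cover the spread between libraries, and counts without molecular identifiers are not independent molecules. Alternatives were DESeq2 1.42.0, limma voom 3.58.1, other scalings and filters, blocks, summed libraries and leaving out each library. Scaling by totals without ribosomal DNA rows was chosen after seeing the data.

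The 44 genes and the lists were chosen with earlier results of these data known. Values in every library are given for up to 3 called genes of each role with the smallest adjusted p and for ORC1, CDT1, GMNN, MCM2, PCNA, RRM2, TYMS, UHRF1, CCNE1 and E2F1, and of each further list the 3 called genes with the smallest adjusted p and the leading gene called the other way. The values of 1 gene that this rule names in the list of other nucleotide supply are not reported here. Other genes given library by library (MCM6, PRIM1, POLE2, RPA2, RRM1, MYC and CDKN1B) were chosen after their values were seen.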

Additional observations from a re-analysis of the deposited data

Results flagged for a closer look

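Among 90 groups of 4 libraries (the CPM of each of the 44 genes and their sum, in DMSO and in AF), 1 had a library apart from the rest. MCM6 stood at 101.4 CPM in DMSO replicate 4, while the other DMSO libraries lay between 97.0 and 97.5 CPM, so that the gap to the nearest library made up 0.888 of the group's range, above Dixon's critical value for 4 libraries. Chance alone flags about 1 in 20 groups. DMSO replicate 4 is the library with the lowest depth. Without it the MCM6 change was -0.21 and was not called (edgeR adjusted p = 0.0615).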

How the results depend on the processing

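The count of the 44 genes called lower was 31 and lay between 22 and 36 over all alternatives, with 0 called higher in each. DESeq2 gave 33, limma voom with a correlation within library-name stems 34, no filter on low counts 32, and at least 1 CPM in 4 libraries 33. Library totals alone gave 883 genes called of all tested, 700 of them lower, and totals without rows named as ribosomal RNA gave 963 and 760, against 2705 and 1369. Under these 2 scalings the median of the 44 was -0.57 and -0.56, RPA2 was -0.12 in both, and the calls were 3 and 4 for other replication factors, 3 and 4 for other nucleotide supply, 3 and 5 for RB-E2F and CDK control, 2 and 3 for checkpoint and repair, and 0 and 0 for mitosis. With totals that leave out all ribosomal DNA rows, 33 of the 44 fell and RPA2 was -0.0046. Mitosis calls were 7 of 40 with DESeq2, with limma voom and with the 1 CPM filter. Over all genes, calls were then 3239 of 17535, 3374 of 17535 and 2809 of 14940. Leaving out a library gave 1616 to 2964 genes called, 833 to 1502 of them lower, and 22 (without DMSO replicate 2) to 36 (without AF replicate 4) of the 44. It gave 5 to 16 calls for other replication factors (5 without DMSO replicate 3), 8 to 11 for nucleotide supply, 6 to 12 for RB-E2F and CDK control (6 without AF replicate 3), 4 to 9 for checkpoint and repair and 2 to 6 for mitosis. GMNN ranged from -0.16 to 0.019 and RPA2 from -0.051 to 0.061. Where a value moved, the cause was not tested. Deviations of same-numbered libraries correlated weakly, at 0.094, 0.129, 0.029 and 0.192. AF replicates 1, 2 and 4 correlated best with the DMSO library of the same number, and AF replicate 3 with DMSO replicate 2. These values do not decide whether replicate numbers pair the libraries. With a replicate block, 35 of the 44 fell, and 4188 of all 17535 genes tested were called, 2086 of them lower. The lists for checkpoint and mitosis then had 12 calls of 30 genes and 8 calls of 40 genes.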
